A study of Mus musculus with 12 samples.

Results

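The 38 genes described here make and import the building blocks of protein and nucleic acid: transporters of amino acids and enzymes of serine, one-carbon, aspartate, asparagine, polyamine, purine and pyrimidine synthesis, together with the transcription factor Atf4. They were taken by gene symbol from the deposited gene count table, in which all 38 were found among 55536 annotated genes, and all 38 passed the filter on low counts, as did 18817 genes in all. RNA-seq was carried out on CD8+ T cells of OT-I mice, whose transgenic T cell receptor recognizes the ovalbumin peptide SIINFEKL. The OT-I donors were Rag1-/- or Rag2-/-, as the study's methods state, and which of these gave each library is not in the labels. In the Ag group (5 libraries), OT-I cells were transferred into wild-type C57BL/6J mice that received the peptide with rat control IgG. In the Ag+Costim group (5 libraries), recipients of the same kind received the peptide with agonist antibodies to CD134 (OX40) and CD137 (4-1BB). Transferred cells were recovered from spleen and lymph nodes, after 4 days by the labels and a somewhat shorter time by the study's methods, and sorted as CD8+ CD45.1+ Vα2+ Vβ5+. The Naive group (2 libraries) held CD8+ T cells of OT-I mice that had not been transferred, so in any comparison with Naive the effect of antigen cannot be told apart from that of transfer into a host with its own lymphocytes. The study used mice of both sexes. The labels give no age for a library and do not say whether a library came from 1 mouse or from pooled mice.

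As background, a T cell that starts to divide must enlarge its stock of protein, RNA and DNA, and it draws on imported amino acids to do so. Large neutral amino acids enter through Slc7a5 joined to Slc3a2, glutamine through Slc1a5 and the Slc38 carriers. Serine, made by Phgdh, Psat1 and Psph or imported, gives up a carbon to folate through the Shmt enzymes, and the Mthfd enzymes pass that carbon on as formate for the purine ring and for thymidylate. Aspartate and glutamine supply nitrogen to purines and pyrimidines, and the purine pathway runs from Ppat to Atic and then branches to adenine and guanine nucleotides. Atf4 is a transcription factor of the amino acid stress response whose known targets include Asns, Psat1, Mthfd2 and Slc7a11, and its protein is controlled largely at translation.

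The summed counts of annotated genes were between 23976932 and 49258758 per library with a median of 44000743.5, and Ag 4 was the shallowest library. Levels are given below as CPM, counts scaled to the TMM-adjusted library size, a scale on which 1 gene can be compared between libraries but not with another gene. Among the cell type markers, the summed CPM of 10 genes of dividing cells was 47.9 to 49.4 in Naive, 724 to 1487 in Ag and 3240 to 4296 in Ag+Costim, and all 10 were called higher in each of the 3 comparisons. The 8 T cell markers were present at a summed 5796 CPM or more in every library, with 7 of 8 called lower in Ag+Costim than in Ag, and Cd4 stayed at or under 2.44 CPM. Of the markers of other cells, 5 of 5 erythroid and 3 of 5 B cell genes were called lower in Ag+Costim than in Ag, 4 of 6 myeloid genes rose, and of 3 NK cell genes 1 rose and 1 fell. Their summed CPM in Ag and Ag+Costim ran from 625 to 6373 and from 14.5 to 222 for erythroid genes, from 108 to 155 and from 22.5 to 57.7 for B cell genes, from 46.8 to 166 and from 99.0 to 259 for myeloid genes, and from 34.2 to 52.1 and from 82.6 to 112 for NK cell genes. The rise of the NK cell sum lay in Eomes alone, with means of 30.9 CPM in Ag and 99.8 in Ag+Costim. Klrb1c fell from 8.96 to 1.11 CPM in mean, and Ncr1 went from 2.79 to 1.33 and was not called. Of the myeloid genes, Itgax had the largest rise in CPM, from a mean of 12.8 in Ag to 76.3 in Ag+Costim. Lyz2 and Cd14 were not called, with means of 79.5 and 0.991 CPM in Ag and 58.5 and 0.493 in Ag+Costim. In Naive the B cell gene Pax5 was at 0 in both libraries and the other 4 B cell genes were not. In bulk RNA, fewer cells of a type and less RNA per cell cannot be told apart, and the part of dividing cells or of other cell types in the results below was not tested.

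Most of the 38 genes were higher with costimulation. Between Ag+Costim and Ag, 32 were called higher and 3 lower (Slc1a5, Psph and Ctps2) at an adjusted p below 0.05 in edgeR's quasi-likelihood test, against a background of 26.6% of all genes called higher and 26.5% called lower. Slc3a2, Atf4 and Sms were not called. The median log2FC, the log2 of the fitted fold change, was 1.08 for the 38 genes, beside -0.049 over all genes tested. In 30 of the 38 every Ag+Costim library lay above every Ag library, which held for 21.3% of all genes, and in 1 (Slc1a5) every Ag+Costim library lay below, which held for 18.5%. Against Naive, Ag cells were split. From Naive to Ag, 15 rises and 15 falls were called, where 24.2% and 22.5% of all genes were called, and the median log2FC was 0.023, beside 0.017 over all genes. Every Ag library lay above both Naive libraries for 15 of the 38 and below both for 17, which held for 27.2% and 29.2% of all genes. With a correction for transcript length this split became 16 higher and 9 lower. That correction, here and below, used the combined length of a gene's annotated exons, not the length of any single transcript. Between Ag+Costim and Naive, 28 were called higher and 1 lower, with backgrounds of 26.9% and 25.4%, and the median log2FC was 1.26. Every Ag+Costim library lay above both Naive libraries for 29 and below both for 3, which held for 31.7% and 34.2% of all genes. The 3 comparisons share libraries and are not independent of one another.

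Within Ag+Costim the libraries did not stand equally high. Ag+Costim 4 held the lowest value of its group for 33 of the 38 genes, at a median of 79.0% of the group mean, and Ag+Costim 2 held the highest for 22. Ag+Costim 4 also had the lowest summed level of dividing-cell genes in its group (3240 CPM, with 3827 or more in the others) and the highest of myeloid genes (259 CPM). Without it, 33 rises and 2 falls were called between Ag and Ag+Costim, and the median log2FC was 1.20. In Ag, replicate 5 held the lowest value for 20 of the 38 genes and the lowest summed level of dividing-cell genes (724 CPM). Without Ag 5, 31 were called higher and 3 lower, with a median of 1.06.

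**Figure D1:**
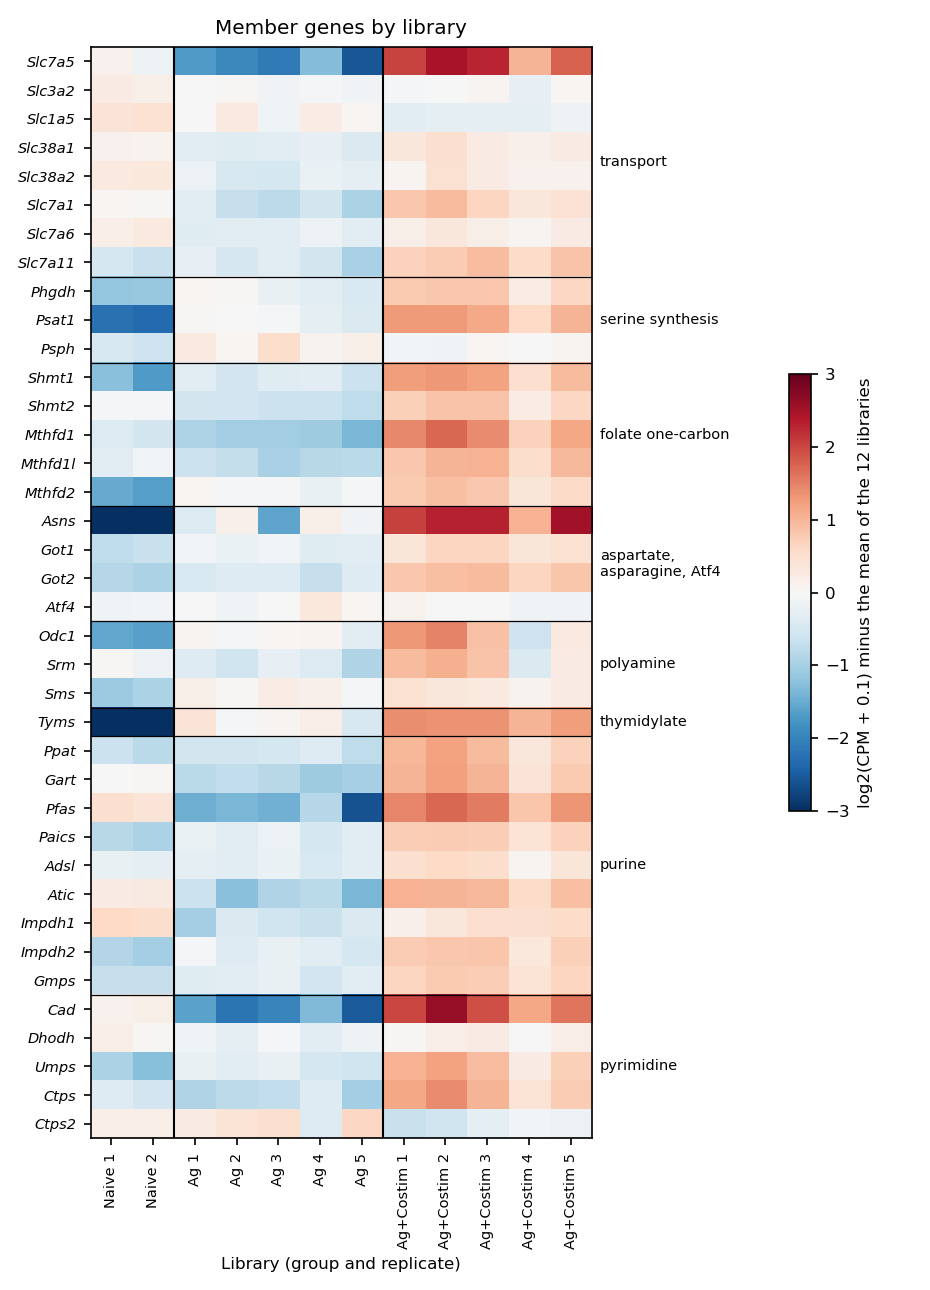
Levels of the 38 genes in each of the 12 libraries, as log2 of CPM plus 0.1 with the mean of the 12 libraries subtracted (colour scale, values beyond 3 in size drawn at its ends). Rows are genes grouped by role and columns are libraries. Red fills most rows of the Ag+Costim columns, most weakly in Ag+Costim 4, while the rows of Slc3a2, Slc1a5, Psph, Atf4 and Ctps2 do not share this pattern.

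Among the 8 transporters, 6 were called higher in Ag+Costim than in Ag, 1 was called lower and 1 was not called. Against Naive, 6 were called lower in Ag and none higher, and with the correction for transcript length this became 2 lower (Slc7a5 and Slc7a6) and 1 higher (Slc7a11). The widest range was that of Slc7a5 (ENSMUSG00000040010.10, chr8:121881150-121907694, minus strand of mm10), the light chain of the large neutral amino acid transporter that carries leucine, phenylalanine and tryptophan. Its CPM was 36.8 and 30.3 in Naive, 10.2, 8.71, 7.67, 13.4 and 5.60 in Ag and 137, 187, 164, 67.8 and 114 in Ag+Costim. No library of one group overlapped another group, and the order was Ag, Naive, Ag+Costim from low to high. The mean of 134 ± 46.2 CPM in Ag+Costim (SD, n = 5) was 14.7-fold that of Ag at 9.13 ± 2.94 CPM (SD, n = 5), a log2FC of 3.89 (SE 0.29, adjusted p = 1.65e-07). Against Naive it fell in Ag, with a log2FC of -1.89 (adjusted p = 0.000333), and rose in Ag+Costim, with 2.001 (adjusted p = 0.000584).

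Slc3a2 (ENSMUSG00000010095.13, chr19:8706882-8723369, minus strand), the heavy chain CD98hc to which Slc7a5, Slc7a6 and Slc7a11 bind, did not share that range. It had 197 and 187 CPM in Naive, 166, 172, 154, 159.9 and 156 in Ag and 162, 165, 176, 139.9 and 172 in Ag+Costim. Ag and Ag+Costim overlapped, and the log2FC between them was 0.013 (SE 0.076, adjusted p = 0.903). That value changed sign under several alternatives and reached -0.18, with a call, under upper-quartile scaling, which moved the median of all genes to -0.24. On FPKM, which scales for transcript length so that genes can be set beside each other, the summed level of Slc7a5 went from 2.57 ± 0.922 in Ag to 36.5 ± 12.5 in Ag+Costim (SD, n = 5 each) and that of Slc3a2 from 86.8 ± 6.95 to 83.5 ± 6.07 (SD, n = 5 each). On that scale the mean of Slc3a2 stood above that of Slc7a5 in all 3 groups, by the least in Ag+Costim.

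Slc1a5 (ENSMUSG00000001918.17, chr7:16781340-16798274, plus strand), which encodes the glutamine carrier ASCT2, moved in the other direction. Its CPM was 512 and 541 in Naive, 390.5, 481, 357, 456 and 409 in Ag and 314, 318, 324, 324 and 354 in Ag+Costim. The groups did not overlap, and each step was downward. The log2FC was -0.33 (SE 0.11, adjusted p = 0.0287) from Naive to Ag and -0.36 (SE 0.087, adjusted p = 0.0034) from Ag to Ag+Costim. The call against Naive in Ag was lost under 8 alternatives, among them each removal of a Naive library, and the call between Ag+Costim and Ag was kept in all that were run.

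The other carriers covered smaller ranges. Slc7a1, the arginine and lysine carrier CAT1, had 12.3 to 19.1 CPM in Ag and 30.2 to 46.8 in Ag+Costim, a log2FC of 1.31 (adjusted p = 4.93e-06). Slc7a11, the cystine and glutamate exchanger xCT, was the lowest of the carriers in reads, at 5.44, 4.57, 5.20, 4.43 and 3.27 CPM in Ag and 10.5, 11.1, 12.4, 9.54 and 11.9 in Ag+Costim, and its log2FC was 1.27 (adjusted p = 1.09e-05). It was not called between Ag and Naive, at 0.11, but with the length correction it was 0.75 and called (adjusted p = 0.0176). Slc38a1 and Slc38a2, sodium-coupled carriers of glutamine and other small neutral amino acids, rose by 0.64 and 0.54 on the log2 scale, and Slc7a6, which exchanges arginine for neutral amino acids, by 0.52. All 3 had been lower in Ag than in Naive, and in Ag+Costim they were not called against Naive, with log2FC values of 0.19, -0.090 and -0.036. With the correction for transcript length the value of Slc38a1 was 0.26 and not called in Ag against Naive and 0.70 and called in Ag+Costim against Naive (adjusted p = 0.000113), and the rise of Slc38a2 in Ag+Costim was 0.20 and not called.

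**Figure D2:**
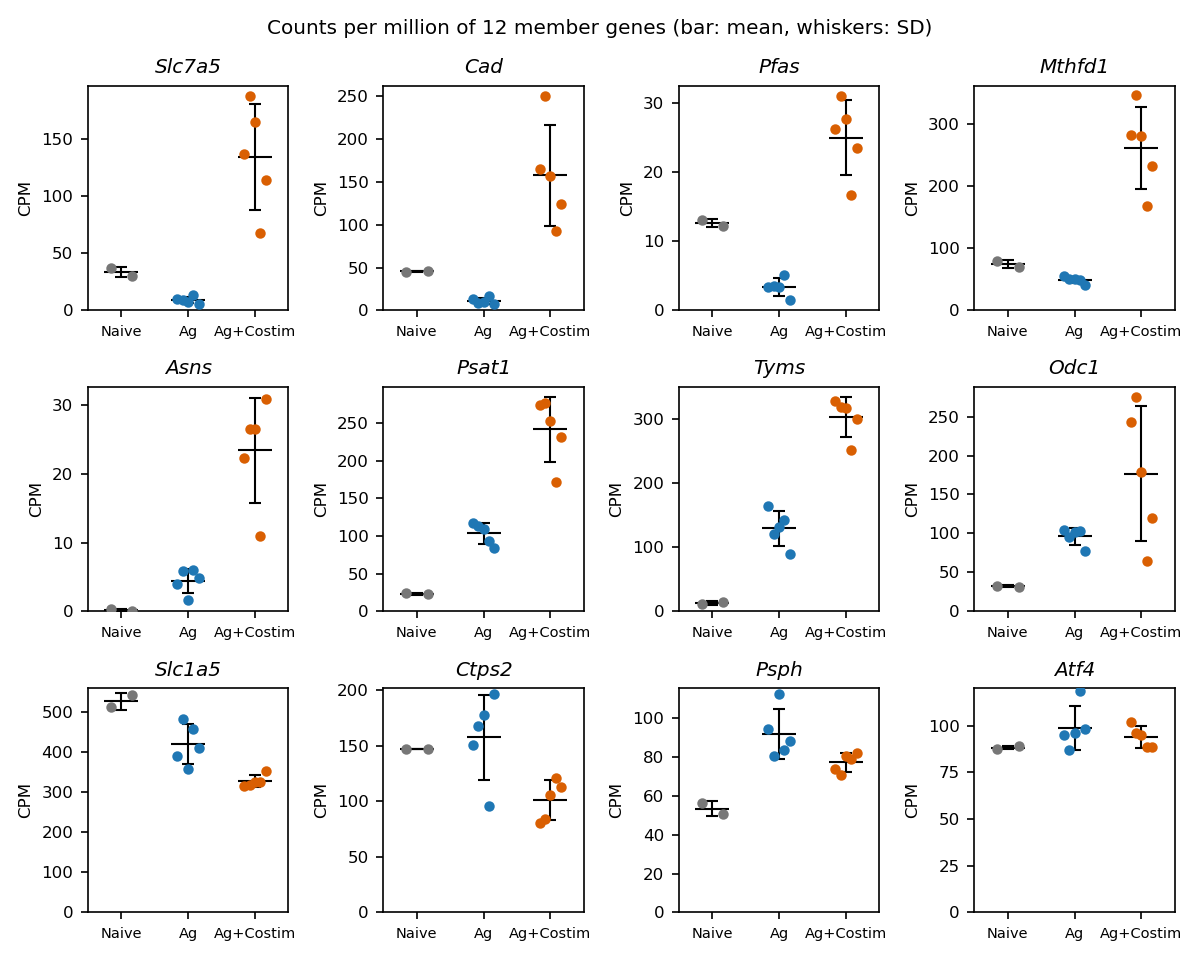
CPM of 12 of the genes in each library, 1 panel per gene, by group on the horizontal axis; points are libraries (2 Naive, 5 Ag, 5 Ag+Costim), bars are means and whiskers SD, and each vertical axis starts at 0. Slc7a5, Cad, Pfas and Mthfd1 are lowest in Ag and highest in Ag+Costim, Asns, Psat1 and Tyms step up from group to group, and Slc1a5 steps down.

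In the serine pathway, Phgdh and Psat1 rose with costimulation and Psph fell. Phgdh, the enzyme of the entry step from 3-phosphoglycerate, had 115 and 116 CPM in Naive, 188 to 268 in Ag and 299 to 454 in Ag+Costim. Psat1 (ENSMUSG00000024640.9, chr19:15904678-15947337, minus strand), the aminotransferase of the next step, had 24.1 and 22.6 CPM in Naive, 117, 114, 109, 94.1 and 84.2 in Ag and 274, 277, 253, 172 and 232 in Ag+Costim. Each group of Psat1 lay wholly above the one before. Its log2FC values were 2.15 (SE 0.20, adjusted p = 2.15e-06) from Naive to Ag and 1.22 (SE 0.13, adjusted p = 4.5e-06) from Ag to Ag+Costim, against 0.98 and 0.84 for Phgdh. Psph, the phosphatase that releases serine, had 56.0 and 50.6 CPM in Naive, 94.6, 80.5, 112, 83.4 and 88.0 in Ag and 73.6, 70.9, 80.5, 78.7 and 82.0 in Ag+Costim. Both treated groups lay above Naive and overlapped each other. Its fall from Ag to Ag+Costim was -0.25 on the log2 scale (adjusted p = 0.0398) and was lost under 9 alternatives, among them the removal of Ag 3, the library with the highest Psph.

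All 5 genes of folate one-carbon metabolism were called higher in Ag+Costim than in Ag, with no overlap between the groups. Shmt1 and Mthfd1 act in the cytosol, and Shmt2, Mthfd2 and Mthfd1l in the mitochondrion. Mthfd1 (ENSMUSG00000021048.7, chr12:76255298-76319803, plus strand), which joins formate to tetrahydrofolate and interconverts the products, had 78.9 and 70.7 CPM in Naive, 54.8, 50.4, 51.0, 49.4 and 40.3 in Ag and 283, 346, 280.2, 169 and 233 in Ag+Costim. The highest Ag library stayed below both Naive libraries, and the lowest Ag+Costim library above them. Its rise from Ag was 5.33-fold, a log2FC of 2.41 (SE 0.16, adjusted p = 8.92e-08). Mthfd1l, which releases formate from the mitochondrion, rose by 1.68 on the log2 scale, Shmt1 by 1.52, Shmt2 by 1.31 and Mthfd2, the mitochondrial methylenetetrahydrofolate dehydrogenase, by 0.76, with adjusted p of 2.79e-05 or less.

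From Naive to Ag the same 5 genes moved in different directions. Mthfd2 went from 39.5 and 36.0 CPM in Naive to a range of 96.8 to 118 in Ag and of 146 to 212 in Ag+Costim. Its log2FC in Ag was 1.52 (adjusted p = 3.05e-06), and that of Shmt1 was 1.02 (adjusted p = 0.00129). Shmt2, Mthfd1 and Mthfd1l fell, with log2FC values of -0.58, -0.61 and -0.59, with adjusted p of 0.0042, 0.0249 and 0.00348. The call for Mthfd1 was lost with a correction for transcript length, with a replicate block and without either Naive library, and that for Mthfd1l without Naive 2.

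Asns (ENSMUSG00000029752.12, chr6:7675169-7693254, minus strand), which makes asparagine from aspartate and glutamine, was close to absent in Naive cells. Its raw counts were 17 and 4 in Naive, 180, 263, 73, 151 and 203 in Ag and 942, 1197, 1238, 470 and 1190 in Ag+Costim, which are 0.350 and 0.0840 CPM, then 3.95, 5.89, 1.70, 5.97 and 4.88 CPM and 22.3, 26.5, 26.5, 10.9 and 30.9 CPM. Each group lay above the one before without overlap. The log2FC was 2.39 (SE 0.36, adjusted p = 8.55e-05) from Ag to Ag+Costim and 4.34 (SE 0.67, adjusted p = 0.000141) from Naive to Ag, where the Naive side rests on few counts and the value ran from 3.66 to 5.68 as single libraries were left out. Got1 and Got2, the cytosolic and mitochondrial aspartate aminotransferases, rose by 0.71 and 1.29 on the log2 scale from Ag to Ag+Costim, with adjusted p of 2.5e-05 and 7.17e-08. Both had also been higher in Ag than in Naive, by 0.51 and 0.45, calls lost without Naive 1 for Got1 and without Naive 2 for Got2.

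The transcript of Atf4 itself (ENSMUSG00000042406.8, chr15:80255184-80257541, plus strand) was not called in any of the 3 comparisons. Its CPM was 87.6 and 89.0 in Naive, 95.1, 86.7, 95.8, 119 and 98.5 in Ag and 102, 95.9, 95.02, 88.5 and 88.5 in Ag+Costim. The ranges overlapped, and the log2FC from Ag to Ag+Costim was -0.074 (SE 0.087, adjusted p = 0.503). Under upper-quartile scaling it was -0.27 with a call, close to the -0.24 by which that scaling placed the median of all genes. Among 19 other tested genes, listed with Atf4 as genes of stress responses, 10 rises and 5 falls were called with costimulation. Of all genes tested, 26.6% were called higher and 26.5% lower. The largest rises were those of Ddit4, an inhibitor of mTORC1, from 1.49 ± 0.245 to 27.2 ± 10.3 CPM (SD, n = 5 each, log2FC 4.20) and of Sesn2, a leucine sensor of that pathway, at 1.45. The largest falls were those of the transcription factors Cebpb, at -2.63, and Ddit3 (CHOP), from 41.3 ± 2.86 to 9.54 ± 2.71 CPM (SD, n = 5 each, log2FC -2.11). In Naive, Ddit4 had a mean of 37.2 CPM and Cebpb of 0.832 CPM. Neither was called between Ag+Costim and Naive, with log2FC values of -0.45 and 0.67. In that comparison Sesn2 was called higher, at 1.63, and Ddit3 lower, at -1.53.

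Promoter sequence was read for 32 of the genes (40 promoters) from RefSeq on GRCm38.p6, in windows from 250 bases before to 50 bases after the start. The C/EBP-ATF response element, TGATGNAA on either strand, was found in 3 of the 40 promoters, of 3 genes, and in 3.97% of all 32851 promoters. Of the known Atf4 targets named above, Asns and Slc7a11 had a match, and Psat1 and Mthfd2 had none among the promoters read. All of these were called higher with costimulation, as were 32 of the 38 genes, so the rise does not set them apart. The targets named are examples. Of the other members, Slc3a2 was not called and Slc1a5 and Psph were called lower. A part of Atf4 in this was not tested. The windows are shown with the element in capitals, on the strand of the gene:
Slc7a11, chr3:50443661-50443690, minus strand: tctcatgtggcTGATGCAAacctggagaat
Slc7a11, chr3:50443642-50443671, minus strand: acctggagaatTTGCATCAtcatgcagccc
Asns, chr6:7693214-7693243, minus strand: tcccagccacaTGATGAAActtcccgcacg
Got1, chr19:43524689-43524718, minus strand: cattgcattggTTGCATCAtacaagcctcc
The matches begin 66 and 47 bases before the start in Slc7a11, 23 in Asns and 102 in Got1. The E-box CACGTG, which MYC and other factors bind, was found in 5 of the 40 promoters, of 5 genes, and in 7.15% of all promoters. It lies 7 bases before the start in Atic, 61 in Tyms, 110 in Impdh2, 196 in Sms and 203 in Paics:
Atic, chr1:71557137-71557166, plus strand: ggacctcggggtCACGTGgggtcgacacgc
Tyms, chr5:30073669-30073698, minus strand: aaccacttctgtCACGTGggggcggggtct
Impdh2, chr9:108560314-108560343, plus strand: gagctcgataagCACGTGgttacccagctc
Sms, chrX:157492466-157492495, minus strand: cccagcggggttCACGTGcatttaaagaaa
Paics, chr5:76951087-76951116, plus strand: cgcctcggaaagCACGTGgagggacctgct
Of these 5, Atic, Tyms, Impdh2 and Paics were called higher in Ag+Costim than in Ag and Sms was not called. A match is a description of the letters and not evidence of binding.

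The 3 polyamine enzymes differed in how even they were within a group. Odc1 (ENSMUSG00000011179.8, chr12:17544794-17551505, plus strand), the decarboxylase that makes putrescine from ornithine, had 33.0 and 31.7 CPM in Naive, 104, 95.4, 102, 103 and 78.1 in Ag and 244, 276, 179, 64.3 and 120.2 in Ag+Costim. The Ag+Costim libraries spread widely and Ag+Costim 4 lay below all of Ag. Its log2FC from Ag was 0.87 (SE 0.29, adjusted p = 0.0226), and this call was lost under 7 alternatives, including without Ag 5 (0.80, adjusted p = 0.0544), without Ag+Costim 1 (0.73, adjusted p = 0.0593) and without Ag+Costim 2 (0.65, adjusted p = 0.0690). Srm, which adds an aminopropyl group to make spermidine, repeated the order of the Ag+Costim libraries, with 61.3, 53.3, 68.3, 60.5 and 42.9 CPM in Ag and 155, 170.1, 147, 59.5 and 95.8 in Ag+Costim. Only Ag+Costim 4 overlapped Ag, and the log2FC was 1.13 (SE 0.24, adjusted p = 0.00117). Sms, which makes spermine, stood at 92.7 to 111 CPM in Ag and 102 to 129 in Ag+Costim and was not called, at 0.17, although it was called without Ag+Costim 4, at 0.24. It had risen by 1.13 from Naive to Ag.

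Tyms (ENSMUSG00000025747.12, chr5:30058202-30073617, minus strand), which makes thymidylate for DNA from deoxyuridylate and a folate carbon, had 11.1 and 15.3 CPM in Naive, 164, 121, 133, 143 and 89.5 in Ag and 329, 319, 318, 252 and 301 in Ag+Costim. Each group lay above the one before. The log2FC values were 3.30 (SE 0.24, adjusted p = 2.92e-07) from Naive to Ag, the largest called rise of the 38 after Asns, and 1.22 (SE 0.15, adjusted p = 1.14e-05) from Ag to Ag+Costim.

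All 9 purine genes were called higher in Ag+Costim than in Ag, with no overlap between the groups. Pfas (ENSMUSG00000020899.16, chr11:68985697-69008460, minus strand), which adds an amide nitrogen to the growing ring, led them. Its CPM was 13.1 and 12.3 in Naive, 3.33, 3.54, 3.38, 5.14 and 1.44 in Ag and 26.2, 31.0, 27.7, 16.8 and 23.5 in Ag+Costim. Ag lay below Naive and Ag+Costim above it in every library, and Ag 5 was the lowest. The mean rose 7.43-fold from Ag, with a log2FC of 2.90 (SE 0.27, adjusted p = 1.15e-06), and against Naive the log2FC was -1.92 in Ag (adjusted p = 0.000248) and 0.98 in Ag+Costim (adjusted p = 0.0298). The last of these was lost under 6 alternatives, among them each removal of a Naive library.

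Gart, which catalyses several steps of the ring, and Atic, which closes it to inosine monophosphate, followed the same course at other levels. Gart had 142 and 144 CPM in Naive, 67.2 to 84.5 in Ag and 184 to 333 in Ag+Costim, a rise of 1.79 on the log2 scale over Ag (adjusted p = 2.11e-07). Atic had 42.1 and 42.4 CPM in Naive, 13.6 to 22.6 in Ag and 52.3 to 73.0 in Ag+Costim, a rise of 1.89 (adjusted p = 2.07e-07). Both fell from Naive to Ag, with log2FC values of -0.90 and -1.24. Ppat, the amidotransferase of the committed step, rose by 1.42 from Ag to Ag+Costim and was not called between Ag and Naive, at 0.17. Paics, which acts on the ring between Gart and Adsl, rose by 0.97 from Ag and had risen by 0.58 from Naive. Ppat and Paics overlap at their starts on opposite strands of chromosome 5, and the library kit does not mark strand, so reads in the shared stretch cannot be told apart. Adsl, which also acts in the adenine branch, rose by 0.74 from Ag and was not called against Naive in Ag, at -0.055.

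At the branch to guanine nucleotides, the alternative forms of inosine monophosphate dehydrogenase differed in their course from Naive. Impdh1 had 152 and 145 CPM in Naive, 49.3, 73.8, 65.9, 62.5 and 73.9 in Ag and 112, 127, 142, 139 and 146 in Ag+Costim. It fell from Naive to Ag (log2FC -1.19, adjusted p = 1.82e-05), rose by 1.04 from Ag to Ag+Costim (adjusted p = 5e-06) and was not called between Ag+Costim and Naive. Impdh2 had 67.3 and 61.2 CPM in Naive, 119.8, 95.4, 106, 98.4 and 86.3 in Ag and 209.6, 218, 223, 154 and 204 in Ag+Costim. Every step of Impdh2 was upward, by 0.66 (adjusted p = 0.0033) and then 0.99 (adjusted p = 6.57e-06), and the call for the first was lost without Naive 2 (0.59, adjusted p = 0.0577). Gmps, which makes guanosine monophosphate, rose by 1.00 from Ag to Ag+Costim (adjusted p = 7.3e-07), and its smaller rise of 0.33 from Naive to Ag was lost under 9 alternatives.

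**Figure D3:**
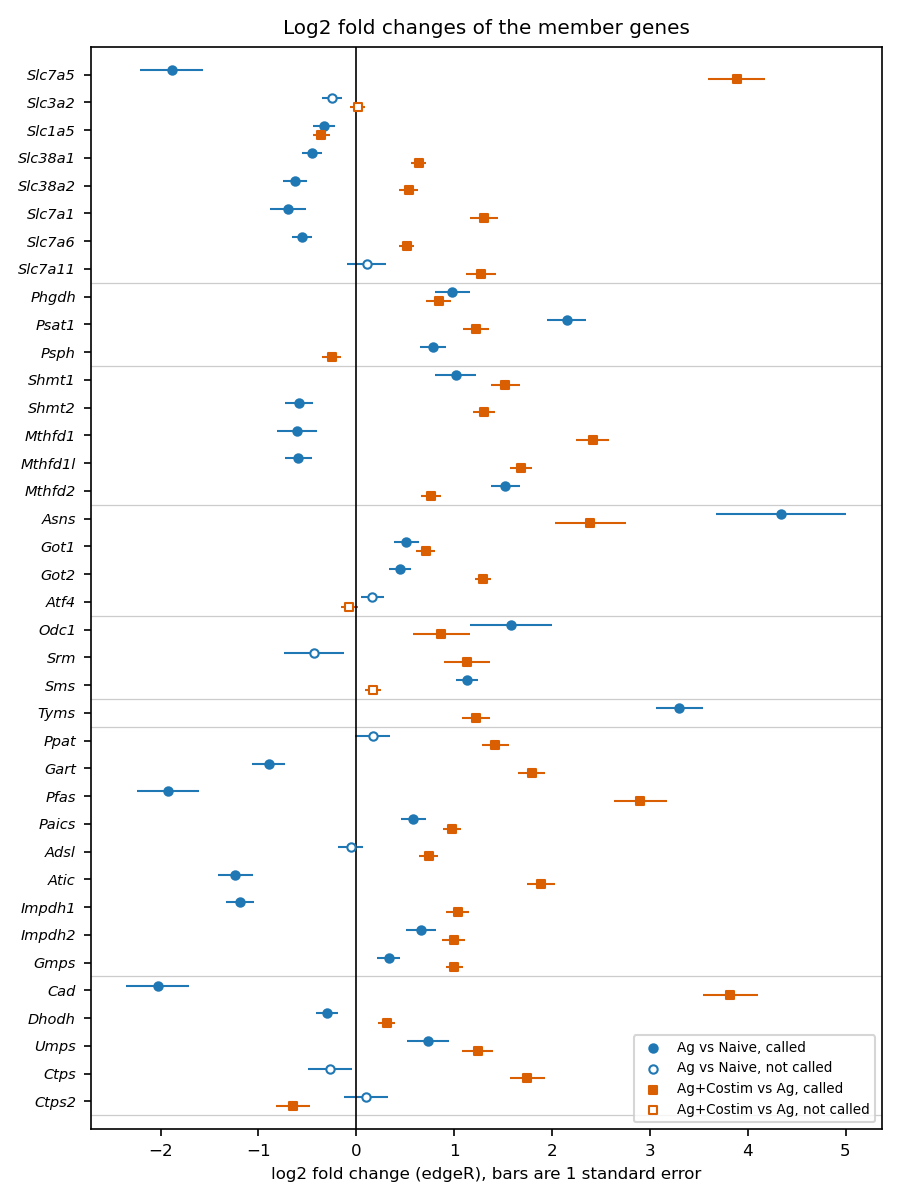
Values of log2FC for the 38 genes from edgeR, for Ag against Naive (circles) and Ag+Costim against Ag (squares), with bars of 1 standard error; filled symbols were called at an adjusted p below 0.05. Squares lie to the right of 0 for 32 called genes, while circles are divided, 15 called on each side.

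In the pyrimidine pathway, Cad (ENSMUSG00000013629.16, chr5:31054780-31078479, plus strand), whose product carries out the opening steps from glutamine to dihydroorotate, changed most. Its CPM was 45.1 and 46.0 in Naive, 13.3, 8.86, 10.3, 16.4 and 7.02 in Ag and 165, 249.9, 157, 92.2 and 124 in Ag+Costim. The groups did not overlap and stood in the order Ag, Naive, Ag+Costim. The log2FC was 3.82 (SE 0.28, adjusted p = 1.74e-07) from Ag to Ag+Costim, -2.03 from Naive to Ag (adjusted p = 0.000164) and 1.79 from Naive to Ag+Costim (adjusted p = 0.00115). Dhodh, the mitochondrial enzyme of the next step, moved little, with 38.2 to 46.4 CPM in Ag and 47.3 to 56.5 in Ag+Costim. Its log2FC of 0.31 was called (adjusted p = 0.00714) and was lost with a correction for transcript length (0.013), upper-quartile scaling (0.11) and both fits on FPKM. Its fall from Naive to Ag, -0.30 (adjusted p = 0.0409), was lost under 10 alternatives, and with the correction for transcript length it was 0.017 and not called. Umps, which completes uridine monophosphate, rose in both steps, by 0.73 and 1.24, and the call for the first was lost without Naive 2.

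The final step to cytidine triphosphate has alternative enzymes, Ctps and Ctps2, which moved in opposite directions. Ctps (ENSMUSG00000028633.7, chr4:120539868-120570276, minus strand) had 33.4 and 29.5 CPM in Naive, 23.6, 25.5, 26.2, 33.9 and 21.7 in Ag and 99.0, 118, 89.8, 58.0 and 74.2 in Ag+Costim, with every Ag+Costim library above the rest. Its log2FC from Ag was 1.75 (SE 0.18, adjusted p = 2.34e-06). Ctps2 (ENSMUSG00000031360.14, chrX:162901238-163032508, plus strand) had 147 and 147 CPM in Naive, 151, 168, 178, 96.1 and 196 in Ag and 80.2, 84.0, 106, 121 and 113 in Ag+Costim. Ag 4 lay among the Ag+Costim libraries and the other Ag libraries above them. The fall was -0.65 (SE 0.17, adjusted p = 0.00596).

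For 5 pairs of related genes, the ratio of summed FPKM was compared between Ag and Ag+Costim within each library. Ctps to Ctps2 was 0.267 and 0.244 in Naive, 0.189, 0.185, 0.177, 0.426 and 0.135 in Ag and 1.53, 1.71, 1.03, 0.572 and 0.7997 in Ag+Costim. The ratios of the groups did not overlap, with a difference of 2.35 between the mean log2 ratios (exact permutation p = 0.00794, the smallest that 252 arrangements allow, and 0.0198 after Benjamini-Hochberg adjustment over the 5 pairs). Got2 to Got1 was 2.24, 2.54, 2.34, 2.29 and 2.84 in Ag and 4.00, 3.49, 3.64, 3.51 and 3.74 in Ag+Costim, again without overlap, a difference of 0.59 (exact permutation p = 0.00794, adjusted 0.0198). Shmt2 to Shmt1 was 10.4 and 15.0 in Naive, between 3.77 and 4.61 in Ag and between 3.38 and 4.07 in Ag+Costim, and the difference of -0.17 missed the threshold (exact permutation p = 0.0635, adjusted 0.106). Impdh2 to Impdh1 was 0.630 and 0.629 in Naive, between 1.63 and 3.38 in Ag and between 1.53 and 2.51 in Ag+Costim. Its difference of -0.084 did not pass (exact permutation p = 0.746), nor did that of 0.13 for Slc38a2 to Slc38a1 (exact permutation p = 0.254). The 2 Naive libraries lay outside the other groups for Shmt2 to Shmt1 and for Impdh2 to Impdh1, which was not tested.

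**Figure D4:**
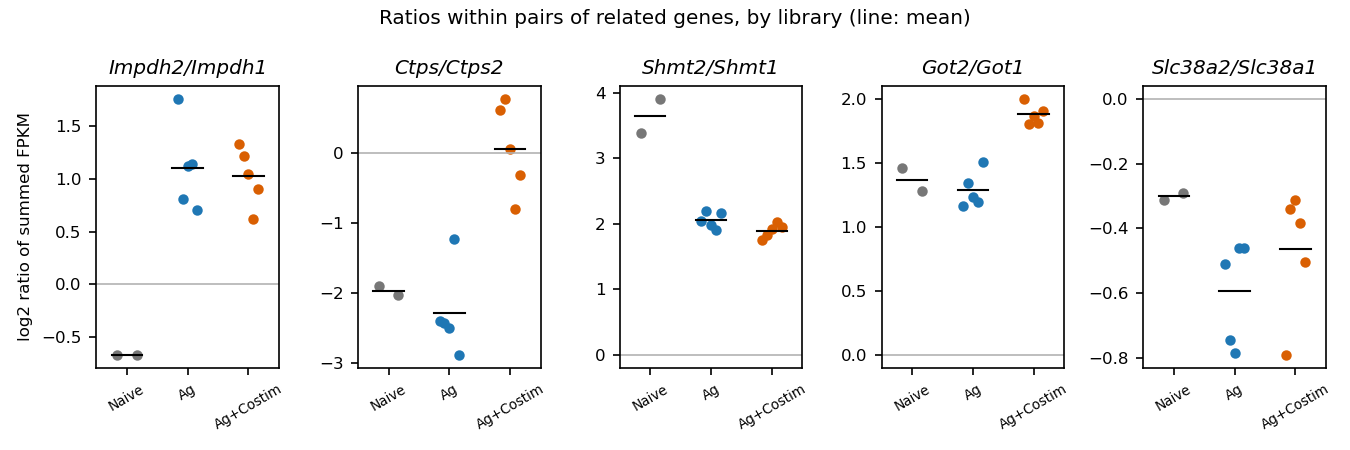
Log2 ratio of the summed FPKM of 5 pairs of related genes (1 panel each), by group; points are libraries and lines are means. The Ag+Costim libraries lie above the Ag libraries for Ctps to Ctps2 and for Got2 to Got1, and the groups overlap for the other 3 pairs.

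Transcript usage was tested between Ag and Ag+Costim over all transcripts, of which 10.9% were called. Among the 111 tested transcripts of 32 of the genes, 18 were called in 10 genes (16.2%), and 13 of them made up at least 10% of their gene in either group. The clearest was in Slc38a2, where the retained-intron transcript Slc38a2-202 (ENSMUST00000229141.1) took 12.9 and 13.1% of the gene's counts in Naive, 23.6, 17.6, 22.0, 20.9 and 17.7% in Ag and 5.78, 4.60, 4.61, 5.12 and 6.63% in Ag+Costim. The 3 groups did not overlap, and the mean fell from 20.4% ± 2.68 to 5.35% ± 0.865 (SD, n = 5 each, adjusted p = 4.05e-07 from limma's diffSplice), so the protein-coding Slc38a2-201 held 94.7% ± 0.865 (SD, n = 5) in Ag+Costim. It was called in all 10 fits that left out 1 library. Sms-203, also a retained-intron transcript, went from 17.7% ± 2.33 to 12.9% ± 1.69 (SD, n = 5 each, adjusted p = 0.0412), but was called in 2 of those 10 fits.

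Called in all 10 fits were also the protein-coding transcripts Mthfd2-201, Slc7a1-201, Slc38a1-202 and Mthfd1-206. Mthfd2-201 held 95.05% ± 1.55 in Ag and 98.9% ± 0.319 in Ag+Costim (SD, n = 5 each, adjusted p = 9.61e-07), and Slc7a1-201 held 91.2% ± 5.43 and 96.9% ± 1.45 (SD, n = 5 each, adjusted p = 0.0118). Slc38a1-202 rose from 14.4% ± 7.03 to 23.3% ± 6.42 (SD, n = 5 each, adjusted p = 0.00192), with overlap between the groups. Mthfd1-206 is listed at 0 in all 5 Ag libraries, at 26.3 and 0% in Naive and at 15.7, 31.1, 48.1, 9.95 and 21.0% in Ag+Costim (adjusted p = 0.00145). Since 1 of the Naive libraries is also at 0 and reads of 100 bases are divided among overlapping transcripts by estimation, it was not tested how the listed 0 arose.

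Calls in the other 4 genes depended on single libraries. Atic-201 took 88.0, 4.53, 7.94, 73.0 and 84.1% of its gene in Ag, where 2 libraries fell far below the other 3, and between 89.1% and 92.9% in Ag+Costim. It was called in 8 of the 10 fits, Psat1-201 and Psat1-205 in 5, Dhodh-201 in 4 and Ppat-202 in 3. For Ppat-202 the mean share was higher in Ag+Costim, at 99.2% ± 0.533 against 95.7% ± 9.28 in Ag (SD, n = 5 each), while the fitted log2 change relative to the rest of the gene was -4.58, so the direction of this call is uncertain.

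**Figure D5:**
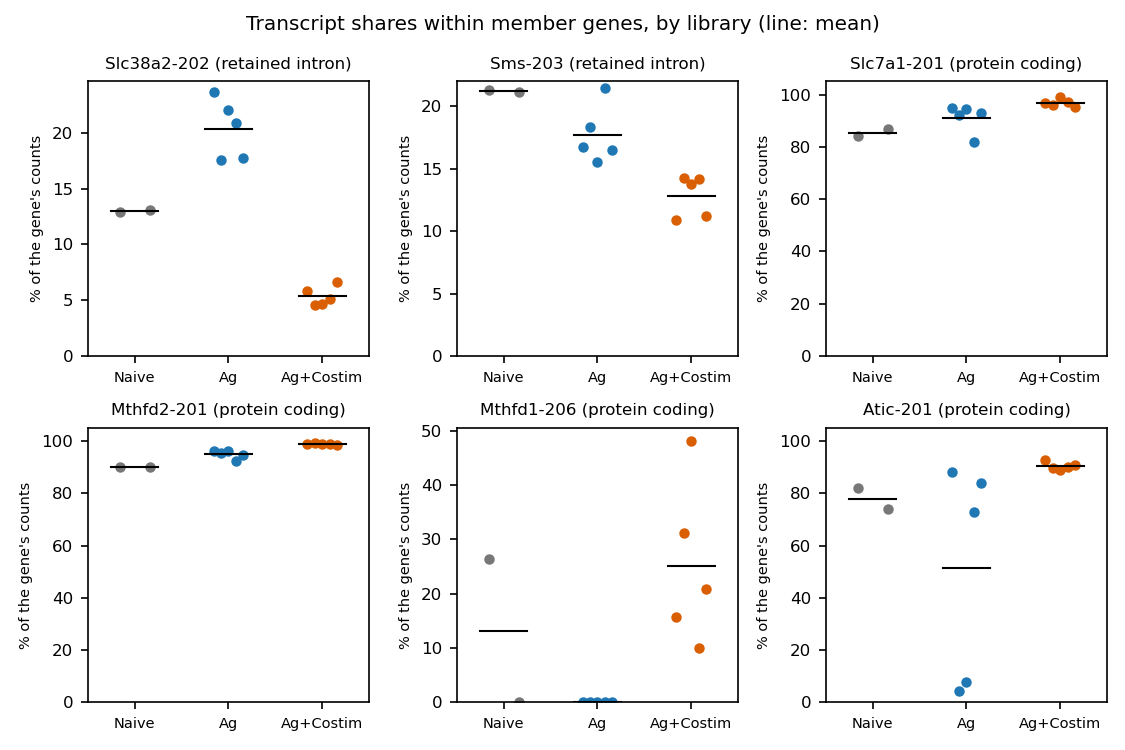
Share of the gene's counts held by 6 transcripts, in percent, by group; points are libraries, lines are means and each vertical axis starts at 0. Slc38a2-202 is highest in Ag and lowest in Ag+Costim without overlap, and Atic-201 divides the Ag libraries into 3 high and 2 low.

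The rest of these pathways, given by lists of genes outside the 38, held rises as well as falls. From Ag to Ag+Costim, 26.6% of all genes tested had a called rise and 26.5% a called fall. Falls within a list are therefore not by themselves particular to its pathway. No list, here or in the next paragraph, was tested against these shares. Of 15 other amino acid transport genes, 6 rises and 1 fall were called with costimulation. The largest rises among them, in Slc7a3 and Slc1a4, were of genes at under 2 CPM in mean, and the fall was in Slc38a9, a lysosomal arginine sensor, from 40.9 ± 4.43 to 17.0 ± 3.47 CPM (SD, n = 5 each, log2FC -1.27, adjusted p = 3.73e-06). Of 18 other folate, methionine and glycine genes, 10 were called higher and 4 lower, with Ahcy, which clears S-adenosylhomocysteine, at 1.66, and the low-level Gldc and Mthfd2l at -1.17 and -1.04. Of 14 genes of glutamate, proline and branched-chain metabolism, 6 were called higher and 2 lower. Bcat1, the cytosolic branched-chain aminotransferase, went from 14.7 ± 4.11 to 71.5 ± 27.7 CPM (SD, n = 5 each, log2FC 2.28, adjusted p = 1.65e-05), and Gpt2, the mitochondrial alanine aminotransferase, had a log2FC of 1.54.

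Of 15 other polyamine genes, 7 were called higher and 6 lower. Azin1, which protects Odc1 from its antizyme, and Amd1, which supplies the aminopropyl donor, rose by 1.35 and 1.17 on the log2 scale. Sat1 and Smox, which acetylate and oxidize polyamines, fell, with log2FC values of -1.86 and -1.07, Sat1 from 291 ± 50.4 to 80.2 ± 21.0 CPM (SD, n = 5 each, adjusted p = 1.09e-06). Of 17 other purine genes, 8 were called higher and 3 lower, with Ampd2, an AMP deaminase, at 1.22, the barely detected Ak4 at 2.62, Adk, which salvages adenosine, at -0.92 and Ampd3 at -1.13. Of 18 other pyrimidine and deoxynucleotide genes, 9 were called higher and 6 lower. Rrm1 and Rrm2, the subunits of ribonucleotide reductase, rose by 2.26 and 2.07, while Tk2 and Dguok, the mitochondrial kinases that salvage deoxynucleosides, both fell, at -1.52 and -1.52. The lists' median log2FC values lay between 0.23 and 0.57, beside 1.08 for the 38 genes and -0.049 over all genes tested.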

How the data were processed

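The authors aligned single-end reads of 100 bases, from SMART-Seq v4 and Nextera XT libraries, to mm10 with HISAT2 2.1.0 and quantified them with StringTie 2.1.0, as the labels and the submitters' processing notes state. The deposited counts per gene and per transcript are StringTie's, derived from coverage and not normalized, and the annotation used is not given in the sources used here. Transcript FPKM values, which the authors also took from StringTie, were added up here by gene name. Gene rows were matched by Ensembl identifier to GENCODE vM21, and 26345 rows of unannotated loci, 0.0508% to 0.121% of a library's counts, were left out. A deposited splicing table holding the authors' own comparison, a sample sheet and a lane sheet were not used.

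Counts of all 12 libraries were fitted with edgeR 4.0.16 (TMM scaling, filterByExpr, robust quasi-likelihood test, 1 term per group, two-sided) in R 4.3.3. P-values were adjusted by Benjamini-Hochberg over all 18817 genes and called below 0.05, and the standard error was taken as the log2FC over the square root of F. DESeq2 1.42.0 and limma 3.58.1 on log2 FPKM plus 1 or 0.1 were among 21 alternative settings. Ratios of summed FPKM were compared by exact permutation, two-sided, and transcripts by limma voom and diffSplice over 29797 transcripts. The edgeR step was tested on simulated data for Ag+Costim against Ag, in which 200 genes were changed by a log2FC of 1, some up and some down. Of these, 143 were recovered in the right direction among 17521 genes, with 13 false calls. The changed genes were drawn only from those with higher fitted counts. The diffSplice step recovered 400 of 400 changed transcripts among 33921, with 20 false calls. Those changes were full swaps of the levels of a gene's leading transcripts, drawn with the same fixed spread for every transcript. This recovery therefore does not measure how well smaller or noisier shifts, such as those described above, are found.

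The 38 genes, their roles, the other lists and the markers were chosen with earlier results of these data known. All 38 are named, and of each other list at most the 2 largest called rises and the 2 largest called falls between Ag+Costim and Ag, of which some are not reported here. Nothing in the labels says that libraries of a group came from separate mice, so p-values measure the spread between these libraries. Another annotated gene overlaps 19 of the 38, on the same strand for 6, and the kit does not mark strand. Depth was 23976932 to 49258758 counts per library. A count of 3 corresponds to 0.0609 to 0.125 CPM. Pairs of libraries of a group differed by far more than sampling noise, with a chi-square per degree of freedom of 21.1 or more. Python 3.11.15 with scipy 1.17.1 and matplotlib 3.10.9 was used.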

Additional observations from a re-analysis of the deposited data

Results flagged for a closer look

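In 5 of 76 groups of 5 libraries, 1 library stood far from the other 4 by Dixon's criterion, which chance exceeds in about 5% of groups. Slc1a5 was at 354 CPM in Ag+Costim 5, with 314 to 324 CPM in the other Ag+Costim libraries. Slc7a6 was at 36.7 CPM in Ag 4, with 32.2 to 33.4 CPM in the other Ag libraries. Got2 was at 113 CPM in Ag 4, with 132 to 140.1 CPM in the others. Paics was at 361 CPM in Ag+Costim 4, with 438 to 463 CPM in the others, and Impdh2 was at 154 CPM in the same library, with 204 to 223 CPM in the others. All 5 genes kept their call between Ag+Costim and Ag when any of these libraries was left out.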

How the results depend on the processing

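For the 38 genes in 3 comparisons, 21 alternatives gave 2394 values, of which 2250 kept direction and call, 82 kept direction and lost the call, 25 kept direction and gained one and 37 changed sign. Causes were not tested. In Ag+Costim against Ag, 30 to 33 were called higher and 2 to 5 lower, the 5 under upper-quartile scaling. That scaling placed the median of all genes at -0.24 there, from -0.049, and at -0.18 in Ag+Costim against Naive; on FPKM plus 0.1 it was -0.24 in Ag+Costim against Naive and -0.15 in Ag against Naive. The comparisons with Naive rest on 2 Naive libraries, and Ag 4 is the shallowest library.

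The median log2FC of the 38 genes in Ag+Costim against Ag was 0.88 with upper-quartile scaling and 0.93 on FPKM plus 1, and 1.03 to 1.20 as single libraries were left out. In Ag+Costim against Naive it was 0.90 and 1.02 on FPKM plus 1 and plus 0.1, and 1.20 to 1.31 with single libraries left out. In Ag against Naive, near 0, it was -0.014 with a replicate block, 0.23 with the length correction, -0.19 and -0.20 on FPKM plus 1 and plus 0.1, and -0.027 to 0.035 with single libraries left out. With single libraries left out, counts called higher and lower were 31 to 33 and 2 to 3 in Ag+Costim against Ag, 10 to 15 and 11 to 16 in Ag against Naive, and 24 to 29 and 1 to 2 in Ag+Costim against Naive. With the length correction 9 were called lower in Ag against Naive. In Ag+Costim against Naive 3 were called lower with upper-quartile scaling, DESeq2 and both fits on FPKM, and 2 with RLE scaling, the length correction and the pair of groups alone. Transcript calls numbered 12 to 20 with single libraries left out.

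The following values changed sign, among them Slc38a1 and Dhodh in Ag against Naive, which had been called. In Ag+Costim against Ag, Slc3a2 was -0.18 with upper-quartile scaling, -0.037 with the length correction, -0.011 in the pair of groups alone and -0.054 in both fits on FPKM, and from -0.016 to 0.081 with single libraries left out, below 0 without Ag 3 (-0.0045), Ag 5 (-0.00073), Ag+Costim 3 (-0.016) or Ag+Costim 5 (-0.0070). Sms was -0.024 with upper-quartile scaling and -0.11 with the length correction, and Atf4 was 0.11 with the latter. In Ag against Naive, Adsl was 0.012 with the block and 0.21 with the length correction, which also gave 0.26 for Slc38a1 and 0.017 for Dhodh. Ctps2 was -0.039 with the block and -0.14 in both fits on FPKM, where Slc7a11 was -0.020 and -0.058 and Ppat -0.025 and -0.027. In Ag+Costim against Naive, Atf4 was -0.062 and Dhodh -0.14 with upper-quartile scaling. Dhodh was -0.0037 with the block, -0.016 without Ag+Costim 3, -0.067 without Naive 2, up to 0.083 without Naive 1, and -0.21 and -0.22 on FPKM, where Slc38a1 was -0.11 and -0.12 and Atf4 -0.12. Slc38a2 was 0.016 with the length correction, and Slc7a6 was 0.0067 without Ag+Costim 4 and 0.012 without Naive 2.

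Among the ratios, Impdh2 to Impdh1 ran from -0.18 to 0.079 with single libraries left out, with the sign turned without Ag 1 (0.079) or Ag+Costim 4 (0.017). Shmt2 to Shmt1 was -0.21 on TMM-scaled CPM (exact permutation p = 0.0238) and -0.20 to -0.13 with single libraries left out, and passed without Ag 4 (-0.20) or Ag+Costim 4 (-0.20). Slc38a2 to Slc38a1 was -0.10 on TMM-scaled CPM and 0.078 to 0.21 with single libraries left out, passing without Ag+Costim 1 (0.21). The labels do not say whether the replicate numbers pair the libraries. Correlations of the deviations of same-numbered Ag and Ag+Costim libraries were low, at 0.0951, 0.0657, 0.0450, 0.0159 and 0.0194. Of the 5 numbers, 3 correlated best with their own, and these values do not settle whether the libraries were paired. With a replicate block, 31 higher and 3 lower calls were made in Ag+Costim against Ag, with a median log2FC of 1.05; Odc1 was not called there (0.72).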

Other observations

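The genes differed in how evenly they stood among the 5 libraries of a group. In Ag+Costim, the SD was 49.1% of the mean CPM for Odc1, 37.4% for Cad, 36.9% for Srm, 34.4% for Slc7a5 and 32.5% for Asns, and 9.61% or less for 11 genes, among them Slc1a5 at 4.73%, Atf4 at 6.08% and Dhodh at 7.60%. In Ag it was 39.3% for Asns, 39.0% for Pfas, 33.2% for Cad and 32.2% for Slc7a5. It was 11.4% for Odc1 in Ag and lowest for Slc3a2, at 4.64%. These are descriptions of 5 libraries each, and they were not tested.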
